A study of Drosophila melanogaster with 36 samples.

Results

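GstD1, GstD9, GstD10 and GstD11 are 4 of the 11 delta-class glutathione S-transferase (GST) genes of Drosophila melanogaster on a spotted array of detoxification genes. They were chosen by their symbols in the table that pairs array spots with genes, and they make up 4 of the 159 named genes and 16 of the 656 spots that carry a single gene name. Each of the 4 genes had 4 spots. The other 7 delta genes, GstD2 to GstD8, serve here as the comparison.

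GSTs join the tripeptide glutathione to reactive or fat-soluble compounds, which makes them easier to excrete, and the delta class is one of the classes that expanded in insects and is often studied in insecticide resistance. GstD1 encodes an abundant enzyme that can remove hydrogen chloride from DDT, and a reporter driven by its upstream sequence is widely used in flies to follow the oxidative stress pathway of the transcription factor CncC and its inhibitor Keap1. GstD9, GstD10 and GstD11 are less well studied, and no specific substrate is named for them here. In the RefSeq annotation of Release 6 the 11 genes lie in a row on chromosome arm 3R, in the order GstD10, GstD9, GstD1, GstD2 to GstD8 and GstD11, with 1 other gene between GstD1 and GstD2 and 1 between GstD8 and GstD11. GstD10, GstD9 and GstD1 thus stand together at one end of the row and GstD11 stands at the other end.

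All animals were of the y cn bw sp strain, and every exposure lasted 4 h. Larvae were in the 3rd instar, 4.5 days after egg laying, and received 1 of 7 compounds. These were the inducers phenobarbital (10 mM) and caffeine (1.5 mg/ml), the cholinesterase inhibitor diazinon (0.013%), the insect growth regulators dicyclanil (0.067%) and lufenuron (20 ppm), and spinosad (6e-05%) and nitenpyram (6 ppm), which act on nicotinic receptors. Adult males were 4 days past emergence and were held in vials coated from 150 µl of acetone with DDT at 10 µg per vial or with 10 µl of a 1 M phenobarbital solution. The label of DDT array 1 gave a higher age for its exposed males than the other adult labels. Controls of each exposure were kept in the same way without the compound, with acetone in the adult vials. Caffeine and phenobarbital are classical inducers of detoxification genes, and DDT, which acts on sodium channels, and the other larval compounds are insecticides.

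For each of the 9 exposures the RNA of 400 whole animals per arm, extracted as 8 samples of 50, was combined into 1 exposed and 1 control pool. Each pair of pools went onto 4 two-colour arrays, with the exposed pool in the red dye Cy5 on arrays 1 and 3 and in the green dye Cy3 on arrays 2 and 4. Arrays of an exposure thus repeat 1 pair of pools technically, and the tests below measure array error, not the spread between animals or cultures. Array 4 of both adult groups held the same values in 1936 of 1936 spots, so both were left out, and 34 of 36 arrays were used, 3 in each adult group and 4 in each larval group. The number of spots with a usable ratio was 1504 to 1732 per array. Because the values are ratios, no expression level of any gene is given, and the labelled stage and sex could not be checked against marker genes. In RNA of whole animals, fewer cells of a type and less RNA per cell cannot be told apart.

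All values below are log2 ratios, exposed pool over control pool, centred on the median of the named genes of each array, so that 0 is the middle gene of an array and 1 is a doubling relative to it. Fitted values are given ± SE from limma, with a dye term shared by all arrays. It evens out the unequal number of dye orientations in adults only where their dye gap matches the shared one. The SE of a gene rests on 1 array error shared by all 34 arrays, not on the arrays of the exposure at hand. It was the same in all 7 larval exposures, at 0.21 for GstD1 and 0.21 for GstD11. The SD between arrays there, dye gaps included, ran from 0.18 to 1.43 for GstD1 and from 0.47 to 1.67 for GstD11. Called means an adjusted p (Benjamini-Hochberg, over the 159 genes of an exposure) under 0.05 together with a change of at least 1.5-fold either way. The labels do not state whether the deposited ratio is Cy5 over Cy3. That direction was taken from the usual red over green form, under which the inducible P450 genes Cyp6a2, Cyp6a8 and Cyp6a9 were higher in phenobarbital (fitted log2 2.15, 1.94 and 3.58 in larvae, and 1.98, 4.12 and 1.24 in adults). In the opposite direction each higher and lower below would swap. The ratios were also taken as not yet turned to exposed over control at deposit, and turned ratios would give other values.

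In phenobarbital larvae GstD10 rose 2.04-fold, while GstD1 and GstD9 were not called. GstD11 was called lower, in 1 of its 2 spot pairs and with a sign that differed with the dye of the exposed pool. That call was kept under 7 of 12 other ways of processing. Thus 2 of the 4 genes were called, where 43.4% of the 159 genes were called, 36 higher and 33 lower. With other centrings the share of higher calls was larger (54 higher and 2 lower on the values as deposited, 41 and 13 with all spots as the centre, 67 and 3 with 4 reference genes as the centre, and 30 and 7 after scaling the arrays to 1 spread), so directions below are relative to the middle gene.

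GstD10 in phenobarbital larvae read 1.55 and 1.69 on the arrays with the exposed pool in Cy5 and 0.50 and 0.36 on those with it in Cy3. All 4 arrays lay above 0, the Cy5 arrays by more. The fitted value was 1.03 ± 0.18 (n = 4 arrays, limma adjusted p = 2.54e-05), rank 31 of 159 from the highest. GstD10 was called in this exposure under each of 12 other ways of processing and without each of the 4 arrays in turn.

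GstD11 in phenobarbital larvae read -2.24 and -2.56 on the Cy5 arrays and 0.18 and 0.75 on the Cy3 arrays. The orientations did not overlap and lay on opposite sides of 0, so the sign of the response differed with the dye of the exposed pool. The fitted value was -0.97 ± 0.21 (n = 4 arrays, 1.95-fold lower, limma adjusted p = 0.000307). This call came from 1 of the 2 places where the gene was spotted. The first pair of spots gave -4.29, 0.66, -4.97 and 1.37 on arrays 1 to 4, and the second pair gave -0.19, -0.30, -0.15 and 0.13. With the first pair alone the fitted value was -1.80, and with the second pair alone it was -0.083 (limma adjusted p = 0.781). On the values as deposited, where the median of all genes moved from -0.15 to 0.63, GstD11 was -0.19 and not called.

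GstD1 in phenobarbital larvae read 1.26 and 1.36 on the Cy5 arrays and -0.23 and -0.25 on the Cy3 arrays. Its fitted value of 0.54 ± 0.21 (n = 4 arrays, 1.45-fold, limma adjusted p = 0.0318) stayed under the 1.5-fold limit. It was called with 3 other centrings, at 0.77 with all spots as the centre, 1.25 with the reference genes and 1.32 on the values as deposited. GstD9 read 0.77, -0.25, 0.82 and -0.31 on arrays 1 to 4, with the Cy5 arrays above 0 and the Cy3 arrays below it. Its fitted value was 0.26 ± 0.18 (n = 4 arrays, limma adjusted p = 0.253), and it was called at 0.97 with the reference genes as the centre and at 1.04 on the values as deposited.

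**Figure D1:**
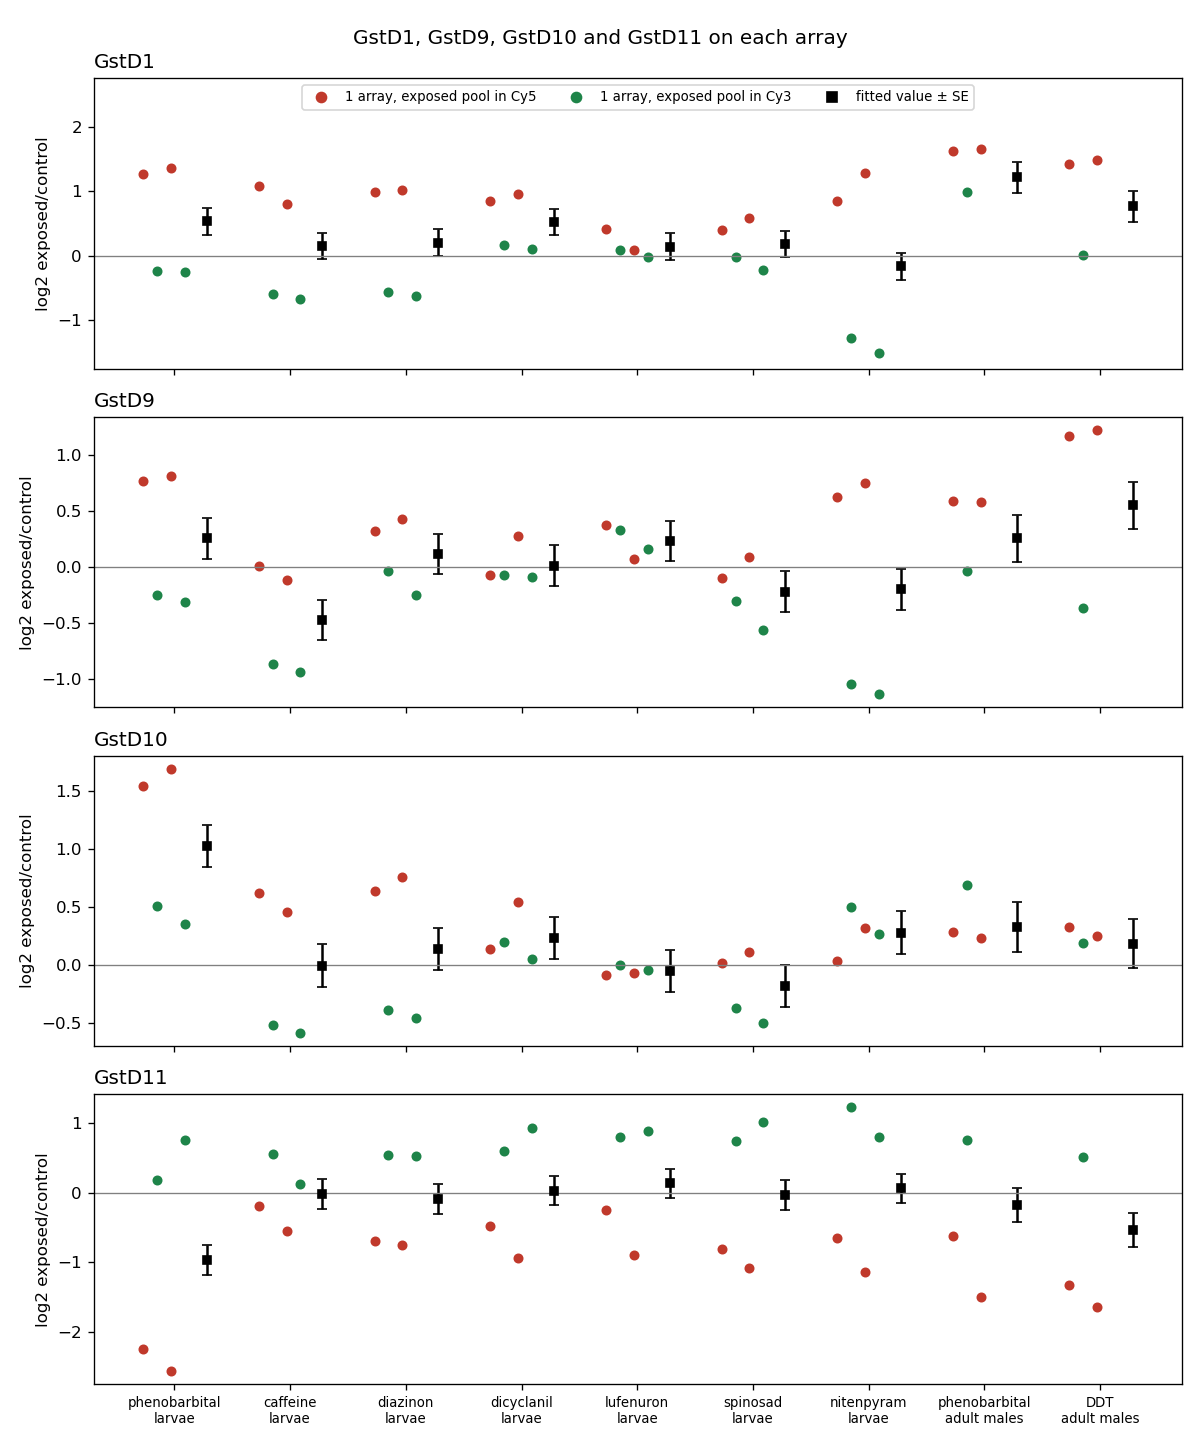
Log2 ratio of exposed over control (vertical axes) of GstD1, GstD9, GstD10 and GstD11 on each of the 34 arrays used, by exposure (horizontal axis); red points are arrays with the exposed pool in Cy5, green points those with it in Cy3, and black squares with bars are fitted values ± SE. GstD1 stands highest in phenobarbital adult males (1.22) and GstD10 in phenobarbital larvae (1.03), and the red points of GstD11 lie below the green ones in all 9 exposures.

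In adult males phenobarbital was followed by a rise of GstD1, the DDT-metabolising member, and by no call for the other 3 genes. Thus 1 of the 4 genes was called, where 18.2% of the 159 genes were called, 27 higher and 2 lower (28 and 6 after scaling). GstD1 read 1.63 and 1.65 on the Cy5 arrays and 0.98 on the Cy3 array. All 3 arrays lay above 0, and the fitted value was 1.22 ± 0.24 (n = 3 arrays, 2.33-fold, limma adjusted p = 0.000247), rank 17 of 159. GstD1 was called in this exposure under each of 12 other ways of processing and without each of the 3 arrays in turn.

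The other 3 genes were nearer to 0 in phenobarbital adult males. GstD10, called in larvae, read 0.28, 0.69 and 0.23 on arrays 1 to 3, all above 0. Its fitted value was 0.33 ± 0.21 (n = 3 arrays, limma adjusted p = 0.338), and it was 0.067 with the second spot pair. Without array 2 it was -0.00058, but then only the 2 Cy5 arrays remained. The fit took the whole shared dye term off their readings of 0.28 and 0.23. GstD9 read 0.60, -0.03 and 0.58, with a fitted value of 0.26 ± 0.21 (n = 3 arrays, limma adjusted p = 0.469), and its orientations lay on both sides of 0. It was called at 0.60 with all spots as the centre. GstD11 read -0.63, 0.75 and -1.50, with a fitted value of -0.18 ± 0.24 (n = 3 arrays, limma adjusted p = 0.670), and again its sign changed with the dye.

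DDT in adult males gave GstD1 a call that rested on the way of processing. GstD1 read 1.42 and 1.48 on the Cy5 arrays and 0.01 on the Cy3 array, so the Cy3 array stood at 0. The fitted value was 0.77 ± 0.24 (n = 3 arrays, 1.70-fold, limma adjusted p = 0.0491), rank 8 of 159. The call was lost under 8 of 12 other ways of processing and without any 1 of the 3 arrays, where the value ran from 0.71 to 0.85 with an adjusted p of 0.0685 to 0.283. With array number as a block it was 0.74 (limma adjusted p = 0.0902). With GstD1, 1 of the 4 genes was called, where 6.29% of the 159 genes were called, 7 higher and 3 lower. The split was 0 and 0 on the values as deposited, 5 and 5 with all spots as the centre, 4 and 5 with the reference genes, and 0 and 1 after scaling.

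GstD9 had its highest fitted value of the 9 exposures under DDT. It read 1.17, -0.37 and 1.23 on arrays 1 to 3, and the Cy3 array alone lay below 0. The fitted value was 0.55 ± 0.21 (n = 3 arrays, limma adjusted p = 0.110), and it was called only without array 2, the Cy3 array, at 0.86. GstD10 read 0.33, 0.19 and 0.25, as averages of spot pairs that gave 0.61, -0.13 and 0.82 (first pair) and 0.05, 0.51 and -0.33 (second pair), with a fitted value of 0.18 ± 0.21 (n = 3 arrays, limma adjusted p = 0.671). GstD11 read -1.32, 0.51 and -1.64, and its fitted value of -0.54 ± 0.24 (n = 3 arrays, limma adjusted p = 0.215) was not called.

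None of the 4 genes was called in caffeine larvae, where 17.6% of the 159 genes were called by limma, 20 higher and 8 lower. With only 4 genes, 0 calls does not set them apart from that share. The split was 23 and 0 on the values as deposited, 27 and 2 with all spots as the centre, 46 and 1 with the reference genes, and 18 and 2 after scaling. The largest of the 4 fitted values was that of GstD9, which lay below 0. GstD9 read 0.01, -0.86, -0.11 and -0.93 on arrays 1 to 4, 3 of 4 below 0. Its fitted value was -0.47 ± 0.18 (n = 4 arrays, limma adjusted p = 0.0663), the only one of the 4 with an unadjusted p under 0.05, and on the values as deposited it turned to 0.10.

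The other 3 genes averaged close to 0 in caffeine larvae, with wide gaps between the orientations. GstD1 read 1.08, -0.59, 0.81 and -0.68 and GstD10 read 0.62, -0.52, 0.46 and -0.59. Their Cy5 arrays lay above 0 and their Cy3 arrays below it. The fitted values were 0.15 ± 0.21 for GstD1 and -0.01 ± 0.18 for GstD10 (n = 4 arrays each). GstD11 read -0.19, 0.55, -0.55 and 0.12 with a fitted value of -0.02 ± 0.21. Its array 4 reading came from the second spot pair alone, as the first pair was missing there. With at least 3 spots required, which leaves that reading out, the fitted value was 0.24 and not called. With the second spot pair alone GstD11 was called higher, at 0.62 (limma adjusted p = 0.0294). With the reference genes as the centre GstD1 was called higher, at 0.61.

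The 5 insecticides given to larvae gave no call for any of the 4 genes in the limma fit. Few genes of any family were called there: 0% of the 159 genes in diazinon, 1.26% in dicyclanil, 0% in lufenuron, 0% in spinosad and 0.629% in nitenpyram. At an unadjusted p under 0.05 the genes numbered 2 in diazinon, 8 in dicyclanil, 1 in lufenuron, 4 in spinosad and 9 in nitenpyram. Of the 4 genes only GstD1 in dicyclanil was among them.

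GstD1 in dicyclanil larvae read 0.86, 0.17, 0.95 and 0.11 on arrays 1 to 4. All 4 arrays lay above 0, unlike those of GstD1 in the other larval exposures. The fitted value was 0.52 ± 0.21 (n = 4 arrays, 1.44-fold, limma adjusted p = 0.553), rank 5 of 159, and it was called only after scaling the arrays to 1 spread, at 0.80. Over the 5 insecticides the fitted values of GstD1 ran from -0.16 in nitenpyram to 0.52 in dicyclanil.

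Nitenpyram had the widest gaps between orientations for GstD1 and GstD9. GstD1 read 0.85, -1.27, 1.28 and -1.51 on arrays 1 to 4, and GstD9 read 0.63, -1.05, 0.76 and -1.14. Their fitted values were -0.16 ± 0.21 and -0.20 ± 0.18 (n = 4 arrays each), near 0 because the orientations offset each other. GstD10 in nitenpyram read 0.03, 0.50, 0.32 and 0.27, all above 0, but these are averages of spot pairs that disagreed. The first pair gave 0.59, 0.09, 0.35 and -0.54 and the second -0.52, 0.90, 0.28 and 1.08 on arrays 1 to 4, with dye gaps of opposite sign. The 4 spots together had a fitted value of 0.28 ± 0.18 (n = 4 arrays, limma adjusted p = 0.975).

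In the remaining insecticide exposures the fitted values of GstD9 ran from -0.22 in spinosad to 0.24 in lufenuron, where all 4 arrays lay above 0. Those of GstD10 ran from -0.18 in spinosad to 0.28 in nitenpyram over the 5 insecticides, and those of GstD11 from -0.09 in diazinon to 0.13 in lufenuron. The array averages of GstD10 were the most repeatable in lufenuron, from -0.09 to -0.00, with a fitted value of -0.05 ± 0.18 (n = 4 arrays). Its spots agreed less well there, with an SD of 0.32 between the 4 spots of array 1, against a median of 0.11 for GstD10.

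The dye of the exposed pool moved with the values of these genes throughout. The dye term, by which the fit raises Cy5 arrays and lowers Cy3 arrays, was 0.61 for GstD1, 0.38 for GstD9, 0.22 for GstD10 and -0.84 for GstD11 on the log2 scale. GstD1 held rank 5 of 159 from the highest and GstD11 rank 5 from the lowest, while the median size of the term over all genes was 0.37. The Cy5 arrays of GstD1 averaged above its Cy3 arrays in 9 of 9 exposures, by 0.21 to 2.45, and those of GstD11 averaged below in 9 of 9, by -0.71 to -2.86. The value of -0.71 is that of caffeine larvae, where array 4 lacked the first spot pair of GstD11. In GstD9 the Cy5 arrays were higher in 8 of 9 exposures and in GstD10 in 6 of 9. What part of a response the dye makes up was not tested. Adults, with 2 arrays in Cy5 and 1 in Cy3, depend on the term more than larvae, and without it the array means in phenobarbital adults were 1.42 for GstD1 and -0.46 for GstD11. For GstD10 in phenobarbital adults the Cy5 minus Cy3 gap was -0.43, opposite in sign to its dye term. The array mean of GstD10 there was 0.40, and the fitted value was 0.33.

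Spots of 1 gene agreed to very different degrees. The SD between the 4 spots of an array had a median of 0.049 for GstD1, 0.23 for GstD9, 0.11 for GstD10 and 0.81 for GstD11, against a median of 0.36 over all genes. The median gap between the 2 spot pairs was 0.040 for GstD1, the smallest of the 159 genes, and 1.25 for GstD11, rank 8 from the largest. GstD1 therefore had closely matching spots together with one of the largest dye terms.

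The first spot pair of GstD11 split by dye in the same direction in all 9 exposures. Over the 18 arrays with the exposed pool in Cy5, the first pair averaged -1.92 ± 1.12 (SD) and the second -0.11 ± 0.71, and the first pair was the lower on 17 of 18. Over the 16 arrays with the exposed pool in Cy3, the first pair averaged 1.31 ± 0.43 and the second 0.13 ± 0.31, and the first pair was the higher on 15 of 15 arrays with both. By exposure, the Cy5 minus Cy3 gap of the first pair ran from -5.64 to -2.15. That of the second pair ran from -1.74 in DDT adult males to 0.99 in diazinon larvae and was also above 0 in caffeine larvae, at 0.89, and dicyclanil larvae, at 0.043, so its pooled means average gaps of opposite sign. Whether both positions carry the same probe, and whether probes of these related genes bind each other's RNA, was not tested, since probe sequences were not used here.

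**Figure D2:**
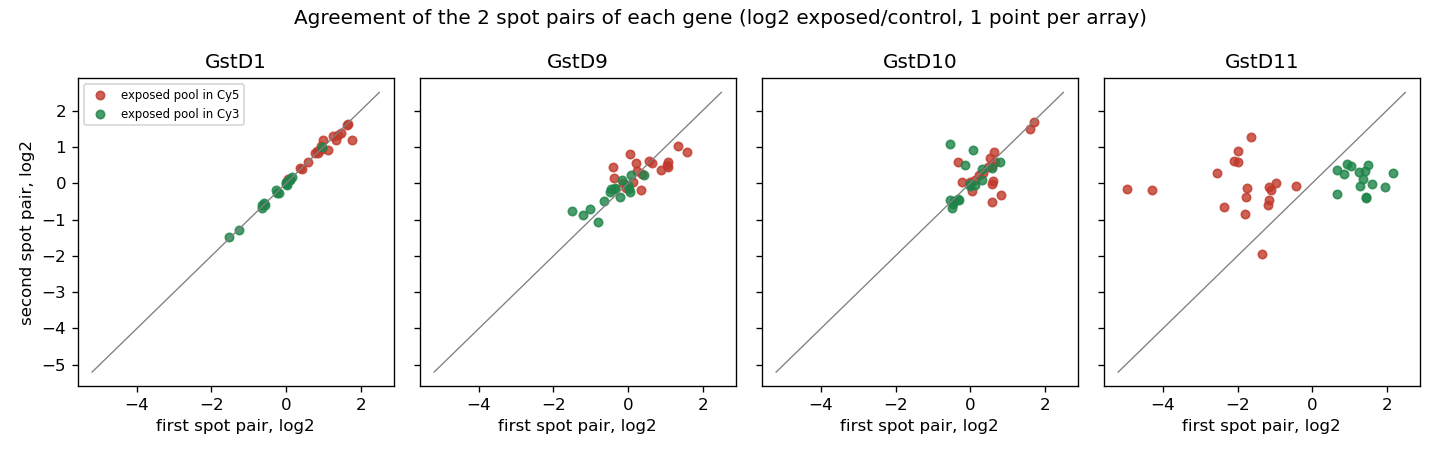
Log2 ratio of exposed over control from the second spot pair (vertical axes) against that from the first pair (horizontal axes), 1 point per array used, for each of the 4 genes; red points are arrays with the exposed pool in Cy5, green points those with it in Cy3, and the line marks equal values. GstD1 lies along the line (median gap 0.040), while GstD11 splits by dye along the first pair (mean -1.92 in Cy5 and 1.31 in Cy3).

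Phenobarbital was the one compound given to both stages, though at doses and by routes that differ. The contrast of adult males minus larvae called none of the 4 genes in limma, where 17.6% of the 159 genes were called, 10 higher and 18 lower in adults (15 and 19 with all spots as the centre, 5 and 31 with the reference genes, 2 and 8 on the values as deposited, and 13 and 9 after scaling). At an unadjusted p under 0.05 there were 3 of the 4 genes and 42 of all 159. The difference was 0.68 ± 0.32 for GstD1 (limma adjusted p = 0.155), -0.70 ± 0.28 for GstD10 (adjusted p = 0.0878), 0.79 ± 0.32 for GstD11 (adjusted p = 0.0921) and -0.00 ± 0.28 for GstD9 (adjusted p = 0.998). GstD1 was thus higher in adults than in larvae and GstD10 lower, neither past the threshold. GstD10 was called at -1.18 with the reference genes as the centre, and GstD1 at 0.80 with all spots as the centre.

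The opposite order of GstD1 and GstD10 in larvae and adults given phenobarbital can be read within each array, where the centring cancels. This difference was chosen after the values had been seen and is given without a test. GstD1 minus GstD10 on the log2 scale ran from -0.73 to -0.28 over the 4 arrays of phenobarbital larvae, all below 0. It ran from 0.30 to 1.42 over the 3 arrays of phenobarbital adult males, all above 0. The arrays used of the stages did not overlap, and within each orientation the adult arrays were the higher. The left-out array 4, held by both adult groups, read -0.31 for GstD1 and -0.00 for GstD10. If it belongs to phenobarbital adult males, not all adult arrays lie above 0, and the stages overlap. No other exposure had all its arrays below 0. In DDT adult males the difference ran from -0.18 to 1.23, with the Cy3 array as the lowest.

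**Figure D3:**
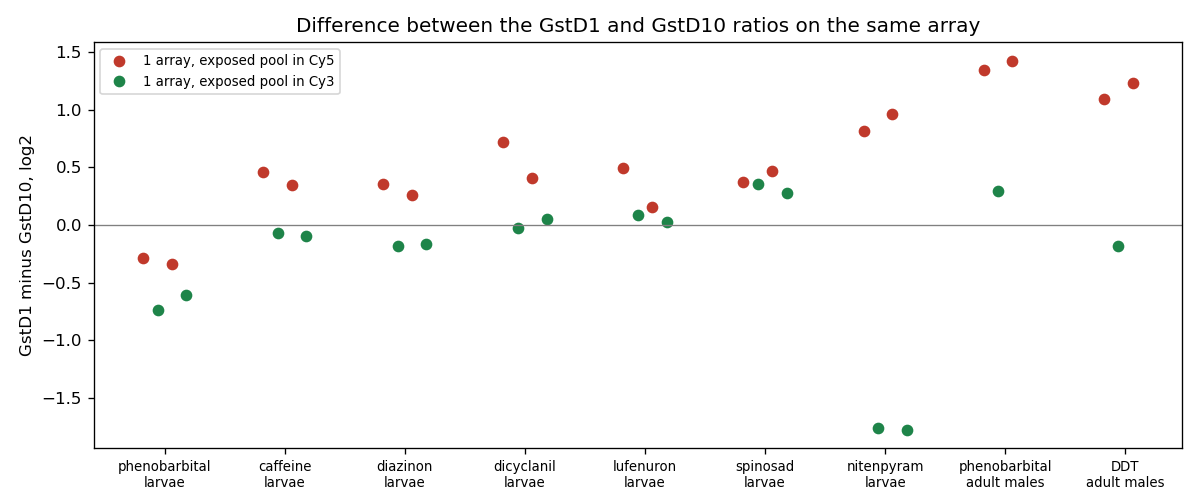
Log2 ratio of GstD1 minus that of GstD10 on the same array (vertical axis) for each of the 9 exposures (horizontal axis), 1 point per array used; red points are arrays with the exposed pool in Cy5, green points those with it in Cy3. Phenobarbital larvae lie between -0.73 and -0.28, and phenobarbital adult males between 0.30 and 1.42. The left-out array 4 of the adult groups, where GstD1 was below GstD10, is not shown.

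With exposures as replicates, the 2 adult pool pairs were set against the 7 larval ones. The adult fitted values of GstD1, 1.22 and 0.77, lay above all 7 larval ones, of which the highest was 0.54. The difference was 0.77 ± 0.22 (n = 2 and 7 pool pairs, limma adjusted p = 0.438), and 0% of the 159 genes were called in limma, with 11 at an unadjusted p under 0.05, GstD1 among them. GstD9 differed by 0.44 ± 0.23 (adjusted p = 0.832), GstD10 by 0.05 ± 0.29 and GstD11 by -0.23 ± 0.28 (adjusted p = 0.973 for both). Stage cannot be told apart from route, solvent and, apart from phenobarbital, the compound.

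Among larvae, caffeine and phenobarbital together were set against the 5 insecticides, and none of the 4 genes was called by limma, where 28.3% of the 159 genes were. The difference was 0.43 ± 0.27 for GstD10 (adjusted p = 0.262), -0.51 ± 0.24 for GstD11 (adjusted p = 0.135), 0.17 ± 0.21 for GstD1 (adjusted p = 0.539) and -0.10 ± 0.23 for GstD9 (adjusted p = 0.764). The exact two-sided permutation test over the 21 splits of the pool pairs gave p = 0.238, 0.143, 0.476 and 0.619 in that order, and the smallest p it allows is 0.0476. The caffeine values of GstD10 and GstD11, -0.01 and -0.02, lay near those of the insecticides, and without caffeine both genes were called, at 0.94 and -0.98. That leaves phenobarbital larvae as a lone pool pair, assumed to vary like the insecticides, which alone supply the spread. On the values as deposited GstD1 and GstD10 were called, at 0.96 and 1.22.

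The mean over the 7 larval pool pairs was 0.23 ± 0.10 for GstD1 (n = 7 pool pairs, limma adjusted p = 0.475), with 6 of 7 above 0. It was 0.20 ± 0.14 for GstD10, -0.04 ± 0.11 for GstD9 and -0.13 ± 0.13 for GstD11. Without phenobarbital larvae it was 0.067 for GstD10 and 0.011 for GstD11. In this test 0% of the 159 genes were called by limma, and 15, GstD1 among them, had an unadjusted p under 0.05.

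Calls among the 7 delta genes between GstD1 and GstD11 were most numerous in the phenobarbital exposures, and the difference between exposures was not tested. In phenobarbital larvae 6 of 7 were called higher, where 36 of all 159 genes were. The median of the 7 was 1.47 against 0.40 for the 4 genes and -0.15 for all genes, from GstD8 at -0.15 ± 0.23 to GstD2 at 4.66 ± 0.19. In phenobarbital adult males 5 of 7 were called higher, where 27 of all 159 genes were. The median of the 7 was 0.95 against 0.29 for the 4 genes and -0.07 for all genes, again from GstD8, at -0.20 ± 0.27, to GstD2, at 3.68 ± 0.23. GstD10 in larvae and GstD1 in adults thus lay within the range of GstD2 to GstD8. In DDT adult males 3 of 7 were called higher, where 7 of all 159 genes were. The median of the 7 delta genes was 0.45 against 0.37 for the 4 genes and 0.03 for all genes, and GstD2 was the highest at 1.19 ± 0.23. On the values as deposited and after scaling, 0 of all genes were called higher under DDT, so these 3 calls were lost.

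One of the 7 genes was called higher in caffeine larvae and one in dicyclanil larvae, GstD2 at 0.86 ± 0.19 and GstD3 at 0.80 ± 0.18. Of all 159 genes 20 were called higher in caffeine and 2 in dicyclanil larvae. The dicyclanil call was lost on the values as deposited, where 0 genes were called. In the 4 other larval exposures none of the 7 was called, and none was called lower in any of the 9 exposures. Whether the 4 genes differ from the 7 beyond these counts was not tested.

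**Figure D4:**
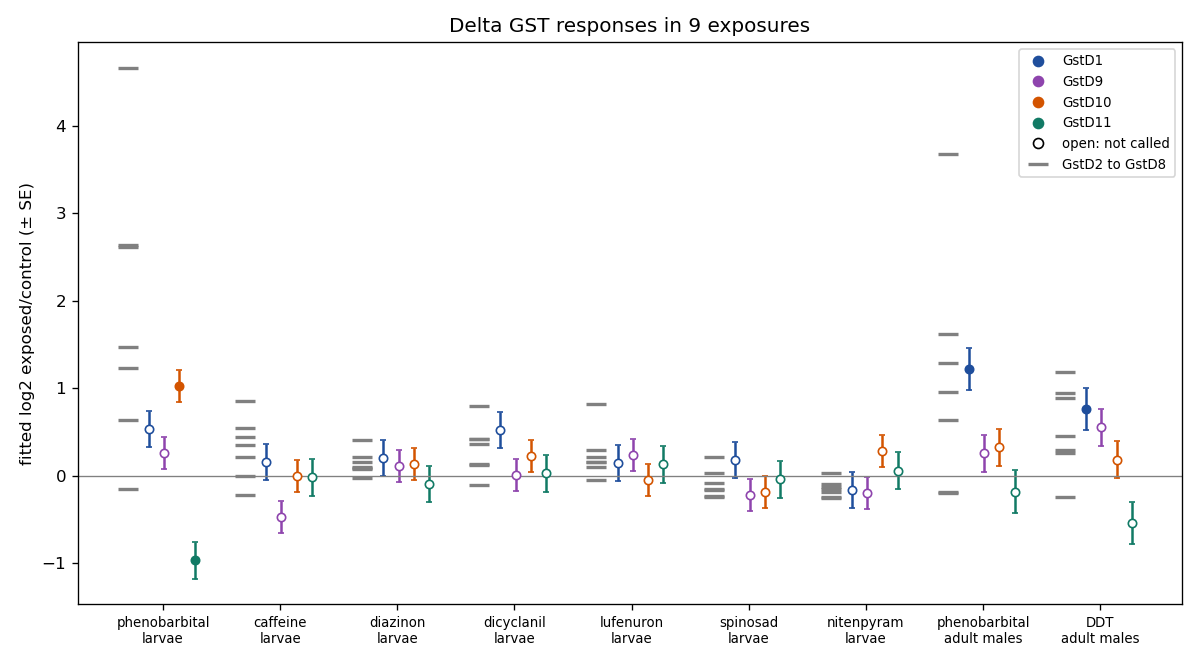
Fitted log2 ratio of exposed over control (vertical axis) in the 9 exposures (horizontal axis) for GstD1, GstD9, GstD10 and GstD11, with bars of ± SE, and for GstD2 to GstD8 as grey dashes; filled circles are called. GstD2 reaches 4.66 in phenobarbital larvae and 3.68 in phenobarbital adult males, above GstD10 at 1.03 and GstD1 at 1.22.

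The 4 genes did not share 1 profile over the 9 exposures. The Pearson correlation of fitted values was 0.62 between the neighbours GstD1 and GstD9, 0.38 between GstD9 and GstD10, 0.33 between GstD1 and GstD10, and -0.44, -0.53 and -0.81 between GstD11 and GstD1, GstD9 and GstD10. The last of these was -0.30 without the 2 exposures farthest from the median of GstD10. These are descriptions over 9 points that share arrays, a dye term and a centring.

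By the same measure the named genes outside the 4 most like GstD1 were GstD3 at r = 0.78 (0.88 without the 2 farthest exposures), GstD2 at 0.69 (0.64) and Cyp12c1 at 0.69 (0.53). For GstD9 they were GstT1 at 0.70 (0.61), se at 0.70 (0.20) and GstD8 at 0.66 (0.13). GstD1 was the one of the 4 with GstD2 and GstD3 among its highest r. Each r is a top pick over the named genes outside the 4 that had a value in every exposure. How high it would be among unrelated genes was not tested. For GstD10 they were Cyp4e3 at 0.94 (0.56), GstO3 at 0.92 (0.61) and Cyp4p1 at 0.88 (0.72), and for GstD11 CAH1 at 0.96 (0.65), GstE12 at 0.91 (0.69) and Dcp-1 at 0.91 (0.44). The profiles of GstD10 and GstD11 turn on phenobarbital larvae, one of the exposures left out in the second value.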

How the data were processed

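The table the authors deposited holds log2 ratios of the dyes for 1936 spots on 36 arrays. The submitters' processing notes name limma, with no version or role, and background handling and normalization are not given in the sources used here. Array medians of named genes ran from -1.95 to 0.63, so each array was centred on that median, although the planned analysis had assumed normalised values. Besides 8543 empty cells, 2301 cells held a ceiling value of 16.61 (log2 of 100000) and were set to missing. Of named-gene values 5.00% were missing, 2 of the 136 of GstD11 included. Of the spots, 656 had 1 gene symbol, 8 several and 1272 none, and 158 of the 159 genes were found in the RefSeq table, used for names and gene order only.

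Spots of a gene were averaged and each ratio was given as exposed over control. The fit, with 1 coefficient per exposure and a common dye term, used limma 3.58.1 (R 4.3.3). Tests with exposures as replicates used fitted coefficients and an adjusted p under 0.05. The ratios were taken as not turned before deposit. In phenobarbital larvae 141 unnamed spots had a gap of over 4 log2 units between orientations. In each other group 134 to 138 of these lay on the same side. The groups were thus alike in this, but the gaps cannot tell unturned from turned ratios. A dye bias in turned ratios would leave such gaps too. Array numbers were taken not to pair samples across exposures, since each exposure had its own pair of pools. After the dye term, same-numbered deviations correlated at -0.07 to -0.05 on average, with single correlations from -0.61 to 0.55. That term was fitted on the same arrays, so the average cannot decide the question. No signal intensities were used, so signal over background is unknown, and precision is limited by how many arrays there were. Fits were tested on simulated data with 1 dye term per gene for all exposures. In the real data the dye gap varied between exposures, from 0.21 to 2.45 for GstD1, which the simulation did not include. Figures were drawn with Python 3.11.15 and matplotlib 3.10.9. The 4 genes and the lists were chosen with earlier results of these data known. The text names the 4 genes, GstD2 to GstD8 by counts and extremes, and the 3 genes outside the 4 with the highest r to each. Alternatives were the centring, scaling, spot average, spot minimum, dye term, replicate block, the identical arrays and each array or exposure left out, and, chosen after seeing the data, each spot pair.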

Additional observations from a re-analysis of the deposited data

Results flagged for a closer look

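Of 32 groups of 4 to 7 values tested for a sample far from the others, 3 held one. Chance gives about 1 in 20 only where values form 1 cluster. Groups of arrays that split by dye can hardly be flagged, so that rate does not apply to them. GstD9 on array 3 of dicyclanil larvae, at 0.28, stood apart from the other 3 arrays, which lay between -0.09 and -0.07. GstD10 in phenobarbital larvae, at 1.03, stood above the other 6 larval exposures, of which the highest was 0.28. GstD11 in phenobarbital larvae, at -0.97, stood below the other 6, of which the lowest was -0.09, and with the second spot pair alone it was -0.083.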

How the results depend on the processing

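Of 832 values of the 4 genes recomputed under other settings, 787 kept their call, 16 lost one, 28 gained one and 1 reversed, and 89 values that were called under neither setting changed sign. The reversed one was GstD11 in caffeine larvae, at 0.62 with the second spot pair (1 of the 4 genes called). The cause of the changes below was not tested. In phenobarbital larvae GstD1 gained a call at 1.32 as deposited, 0.77 centred on all spots and 1.25 centred on reference genes, and GstD9 at 1.04 as deposited and 0.97 on reference genes. There GstD11 lost its call at -0.19 as deposited, -0.25 on reference genes, -0.58 with arrays scaled to 1 spread, -0.97 without a dye term and -0.083 with the second spot pair. The number of the 4 genes called there was 1 to 3. In caffeine larvae GstD1 was called at 0.61 on reference genes, and in dicyclanil larvae at 0.80 with scaled arrays. In phenobarbital adult males GstD9 was called at 0.60 centred on all spots (2 called). In DDT adult males GstD1 lost its call at 0.77 as deposited, 0.57 on all spots, 0.55 on reference genes, 0.41 with scaled arrays, 0.97 without a dye term, 0.65 with the identical arrays kept and 0.62 with the first spot pair (0 called).

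With array number as a replicate block, the DDT value of GstD1 was 0.74 and lost its call (0 called). The block changed no other call of the 4 genes. Array numbers share the dye orientation and were taken to pair no samples. Before the dye term, same-numbered deviations correlated at 0.37 to 0.52 on average.

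For phenobarbital in adult males minus larvae, GstD1 was called at 0.80 on all spots, 1.19 with scaled arrays and 0.78 with a dye term per exposure. GstD10 was called at -1.18 on reference genes, -0.70 with the median of spots, -0.73 with the identical arrays kept and -0.97 with the second spot pair, and GstD11 at 0.81 with a dye term per exposure (1 or 2 called). Of caffeine and phenobarbital minus insecticides, GstD1 was called at 0.96 as deposited and 0.82 on reference genes, and GstD10 at 1.22 and 1.07 (2 called).

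Without 1 array at a time, GstD1 ran from 0.46 to 0.60 in phenobarbital larvae (called without array 4) and from 0.71 to 0.85 in DDT adult males, where it was not called, and GstD9 there from 0.40 to 0.86. The stage difference ran from -1.03 to -0.54 for GstD10 and from 0.51 to 1.08 for GstD11. Each was called without 2 of the 7 arrays in turn, array 4 of phenobarbital larvae for both, array 2 of the adults for GstD10 and array 3 for GstD11. Without array 2 the adults have Cy5 arrays only, so that value rests on the shared dye term. Without 1 exposure at a time, caffeine and phenobarbital minus insecticides ran from -0.089 to 0.94 for GstD10 and from -0.98 to -0.035 for GstD11, called only without caffeine, where phenobarbital larvae are a lone pool pair assumed to vary like the insecticides. Between 0 and 3 of the 4 genes were called in any of these.

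The number of the 159 genes called ran over the alternatives with all arrays and exposures from 37 to 75 in phenobarbital larvae, 18 to 47 in caffeine larvae, 0 to 11 in dicyclanil, 0 to 7 in lufenuron, 0 to 2 in spinosad and 0 to 3 in nitenpyram larvae, 21 to 44 in phenobarbital and 0 to 20 in DDT adult males, 10 to 52 for the stage difference and 18 to 74 for caffeine and phenobarbital minus insecticides. Without 1 array it was 3 to 17 in DDT adult males and 0 to 4 in dicyclanil larvae, and without 1 exposure 25 to 76 for caffeine and phenobarbital minus insecticides.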

Other observations

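The identical array 4 of the adult groups, left out above, read -0.31 for GstD1, -0.25 for GstD9, -0.00 for GstD10 and 0.28 for GstD11 when turned to exposed over control. For GstD1 this lay below the Cy3 arrays used, at 0.98 in phenobarbital and 0.01 in DDT adult males. In nitenpyram larvae GstD1 minus GstD10 ran from -1.78 to 0.96 on the log2 scale, the widest range of any exposure.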
